A study of Homo sapiens with 2 samples.

Results

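The IL-6 family of cytokines and the STAT3 route they feed were read here from 10 genes, taken as every probe set with a single gene symbol for the ligands IL6, IL11 and LIF, the receptor chains IL6R, IL6ST, LIFR and OSMR, the kinase JAK1, the transcription factor STAT3 and its feedback inhibitor SOCS3. These were 10 of 19775 genes on the arrays, with 35 of 41097 probe sets. HCC4006 is a human NSCLC cell line with an EGFR exon 19 deletion that is sensitive to erlotinib, an EGFR tyrosine kinase inhibitor. HCC4006ER cells were selected from it by long exposure to rising erlotinib concentrations, carry the same deletion, and are labelled erlotinib resistant with an EMT phenotype. Both lines were cultured for 48 hours with no further treatment, so no drug effect within a line was measured, and total RNA of 3 preparations per line was mixed and put on 1 Affymetrix array. With 1 array per cell line there was no replicate and no test. A difference between the arrays is a difference between these RNA pools. The EMT label was not borne out by the RNA of CDH1 or ZEB1 on these arrays (values further on). From its arrays the study reported higher ZEB1 and lost E-cadherin RNA in HCC4006ER cells, and the deposited signals show neither. Whether the array labelled HCC4006ER holds the cells its label describes cannot be settled from 2 arrays, so every fold is between the arrays as labelled.

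Cytokines of the IL-6 family share the signaling chain gp130, encoded by IL6ST. IL-6 and IL-11 first bind receptor chains of their own, while LIF joins gp130 to LIFR, and oncostatin M pairs gp130 with OSMR or LIFR. The bound receptors bring JAK kinases together, these phosphorylate STAT3, and STAT3 then enters the nucleus and switches on genes that include SOCS3, whose product shuts the receptor down again. In lung cancer this route is known as one that keeps STAT3 phosphorylated beside or below mutant EGFR. The study tested a neutralising antibody to IL-6 on HCC4006ER cells. It reported no inhibition of their growth, alone or with erlotinib, and a loss of STAT3 activation in these cells. Arrays measure RNA, not phosphorylation or secreted protein.

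The ligand genes were where the lines differed most. IL11 and LIF were higher on the array labelled HCC4006ER past the study's 1.5-fold threshold, and IL6, the 4 receptor chains, JAK1, STAT3 and SOCS3 lay within it. The promoters of IL11, the member with the largest difference, and of IL6, the ligand the family is named for, are shown to set side by side a ligand that passed the threshold and one that did not. Each is the RefSeq window of GRCh38.p14 from 250 bases before to 50 after the annotated start, printed 5′ to 3′ on the gene's strand, with motif matches in capitals. IL11 lies on the minus strand (chr19:55370414-55370713) and IL6 on the plus strand (chr7:22726950-22727249).
IL11: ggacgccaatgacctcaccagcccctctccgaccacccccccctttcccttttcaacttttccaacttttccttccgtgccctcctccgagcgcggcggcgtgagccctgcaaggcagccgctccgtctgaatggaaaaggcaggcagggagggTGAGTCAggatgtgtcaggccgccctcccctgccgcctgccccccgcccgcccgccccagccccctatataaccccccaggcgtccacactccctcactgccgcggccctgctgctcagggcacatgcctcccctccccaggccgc
IL6: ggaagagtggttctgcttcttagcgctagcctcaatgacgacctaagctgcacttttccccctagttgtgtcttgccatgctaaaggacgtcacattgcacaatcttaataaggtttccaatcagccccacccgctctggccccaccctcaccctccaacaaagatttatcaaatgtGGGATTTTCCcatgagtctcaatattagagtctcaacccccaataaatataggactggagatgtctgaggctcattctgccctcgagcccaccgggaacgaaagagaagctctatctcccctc
The capitals mark TGAGTCA in IL11, which begins 96 bases before the start, and GGGATTTTCC in IL6, which begins 73 bases before it.

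Of the 10 genes, 9 had such windows, 14 in all, which were searched on both strands for TGANTCA (the AP-1-type motif), TTCNNNGAA (STAT-type) and the NF-kB-type motif (the IL6 capitals are an instance, with 1 base in its middle left free). TGANTCA was found in the windows of IL11, IL6R and OSMR and in 7.71% of all 35116 windows of this length, and the NF-kB-type motif was found only in that of IL6 among these genes and in 0.558% of all windows. TTCNNNGAA was found in 2 of the 3 LIFR windows and in 7.66% of all windows. The windows of IL6ST, STAT3, SOCS3 and JAK1 held none of the 3 motifs, and LIF was the gene without a window here. No marked match overlapped another, and a match is a description of letters, not of a bound site.

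The deposited values were MAS5 signals, a linear brightness per probe set scaled by the authors to the same trimmed mean on both arrays. The background level was the 95th percentile of 127 probe sets for olfactory and bitter taste receptors, assumed to be little expressed (not tested). It came to 96.2 on the array labelled HCC4006, against 91.6 for HCC4006ER. Signals below these levels are called under background. A gene's fold was that of its brightest probe set (by mean log2 signal), and where 1 side was dim the background level took its place, which gives a lower bound on the fold ("at least"). Since probe sets differ in brightness for reasons of their own, signals are compared between arrays and not between genes. As a measure of disagreement, the pooled SD of the log2 fold among probe sets for the same gene was 0.27 (5264 genes), which does not cover the spread among cultures or arrays.

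All 8 epithelial markers were above background on both arrays. Of 5 lung adenocarcinoma lineage markers 3 were above it on each array, SFTPC and FOXA2 on both, NAPSA or SFTPB on 1, and NKX2-1 on neither. E-cadherin (CDH1) read 10469 and 11041 and ZEB1, a repressor of E-cadherin in EMT, read 42.5 and 53.1, under background on both, a pair of readings without the E-cadherin loss and ZEB1 gain that mark EMT, while vimentin (VIM) was higher in HCC4006ER by 1.53-fold. The arrays are therefore called by their labels throughout. Of 10 fibroblast markers, 2 were above background on the array labelled HCC4006 (COL1A1 and THY1) and 1 on the other (COL1A1), with summed signals of 1074 and 1223, and LUM, DCN, COL3A1 and PDGFRB were under it on both. Of 8 leukocyte markers, 2 and 1 were above background, with summed signals of 713 and 537, and PTPRC was under it on both. Endothelial markers were represented by PECAM1 alone among 6, with summed signals of 349 and 299.7. The part of other cell types in the results was not tested. The ratio of the 3′ to the 5′ probe sets, a sign of RNA integrity, was 1.09 on both arrays for ACTB and 0.933 and 0.890 for GAPDH.

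**Figure D1:**
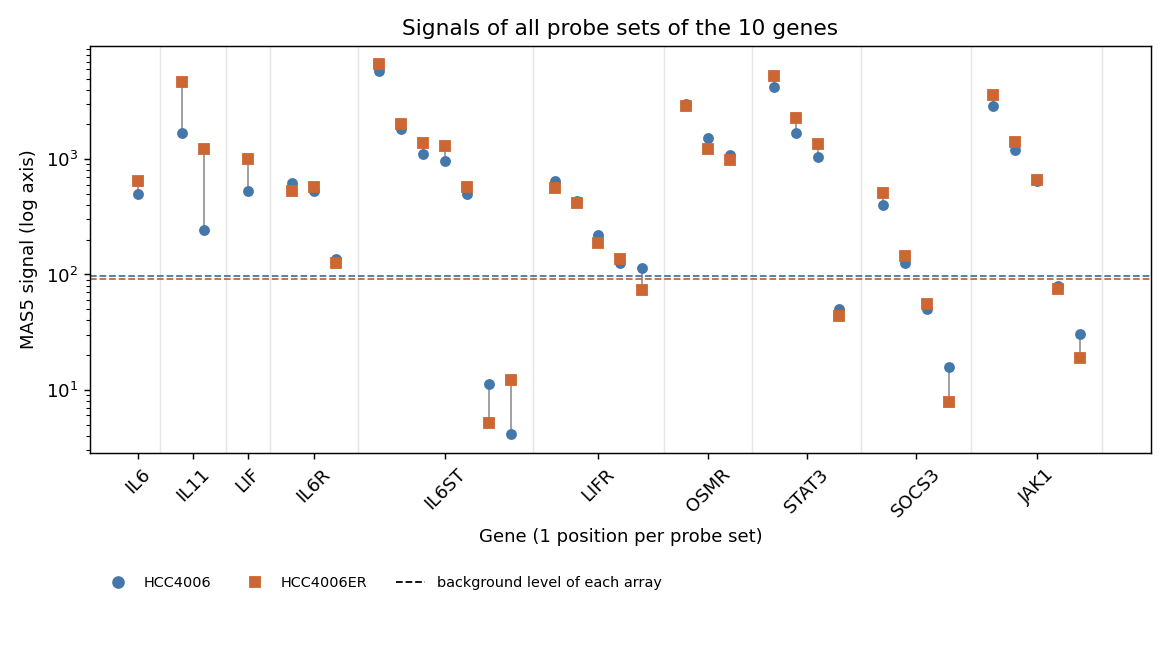
MAS5 signal on a log axis for all 35 probe sets of the 10 genes, 1 position per probe set, with circles for the array labelled HCC4006, squares for the array labelled HCC4006ER and dashed lines at the background levels of 96.2 and 91.6. The widest gaps above the lines are those of the IL11 pair and LIF, and 7 probe sets lie under both lines.

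IL11 encodes interleukin 11, a cytokine known in tissue fibrosis and as a gene that TGF-β induces. Its brighter probe set, 206924_at, read 1695 for HCC4006 and 4628 for HCC4006ER, a 2.73-fold difference. Its dimmer probe set, 206926_s_at, read 243 and 1231, a 5.07-fold difference. Both were well above background on both arrays and higher on the array labelled HCC4006ER. The pair disagreed on the size, with log2 folds of 1.45 and 2.34 and an SD of 0.63, which is above the 0.27 typical of genes, so both gave the same direction and no single size. By its brighter probe set IL11 stood at rank 118 of the 11896 genes above background, counted from the highest fold. In RNA from whole cultures, more producing cells and more RNA per cell cannot be told apart.

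LIF encodes leukemia inhibitory factor, which acts through LIFR and gp130. Its single probe set, 205266_at, read 524 for HCC4006 and 1008 for HCC4006ER. The difference was 1.92-fold, a log2 fold of 0.94, at rank 330 from the highest. It passed 1.5-fold but not 2-fold, and no second probe set was there to set beside it.

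IL6 encodes interleukin 6, the target of that antibody. Its single probe set, 205207_at, read 499 and 644, in each case well above background. The log2 fold of 0.37 is 1.29-fold, within the threshold, and 15.6% of genes above background had a higher fold. IL6 was thus well above background in both lines, with a smaller difference than either other ligand.

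The receptor chains differed little. IL6ST, the shared chain gp130, had 5 of 7 probe sets above background, and all 5 were slightly higher on the array labelled HCC4006ER, with log2 folds of 0.15 to 0.44 (mean 0.26, SD 0.13). The brightest, 212195_at, read 5847 and 6625. The remaining pair, 234967_at and 234474_x_at, read 12.1 or less on both arrays, far under background, and gives no fold.

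IL6R encodes the IL-6 binding chain. Its 3 probe sets read 625, 533 and 136 for HCC4006 and 527, 573 and 127 for HCC4006ER. They went both ways, with log2 folds of -0.25, 0.10 and -0.10, so no direction can be given for this gene.

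LIFR encodes the LIF receptor chain. It had 4 probe sets that cleared background in both lines, 3 lower and 1 higher in HCC4006ER, with log2 folds of -0.25 to 0.10. The brightest, 225575_at, read 651 and 557. A further probe set, 229185_at, read 114 on the array labelled HCC4006 and 73.8, under background, on the other, which makes it at least 1.25-fold lower. The 4 probe sets with a measured fold were thus all within 1.5-fold, whereas that of LIF was past it.

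OSMR encodes the oncostatin M receptor chain. Its probe sets read 2988, 1522 and 1097 for HCC4006 and 2867, 1227 and 979.6 for HCC4006ER. The brightest had a log2 fold of -0.06, which turned to 0.08 when the arrays were brought to a common median. All 3 were lower as deposited, by at most 0.31 on the log2 scale.

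JAK1, the kinase bound to gp130, had 3 probe sets above background, reading 2877, 1189 and 652 for HCC4006 and 3625, 1406 and 654 for HCC4006ER. Their log2 folds were 0.33, 0.24 and 0.00. The other 2 JAK1 probe sets were under background on both arrays.

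STAT3, the factor phosphorylated at these receptors, was modestly higher in every usable probe set. The signals were 4260, 1697 and 1042 for HCC4006 and 5217, 2279 and 1346 for HCC4006ER. The log2 folds were 0.29, 0.43 and 0.37 (mean 0.36, SD 0.07), the closest agreement among members with 3 or more probe sets above background. All 3 were within 1.5-fold. The fourth, 243213_at, read 49.9 and 43.4 and was under background.

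SOCS3 encodes the STAT3-induced inhibitor of gp130 signaling. Its brightest probe set, 227697_at, read 402 and 504 (log2 fold 0.33), and 206360_s_at read 127 and 145 (log2 fold 0.20). The remaining pair was under background on both arrays. SOCS3 RNA was therefore slightly higher on the array labelled HCC4006ER in both usable probe sets and within the threshold in each.

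**Figure D2:**
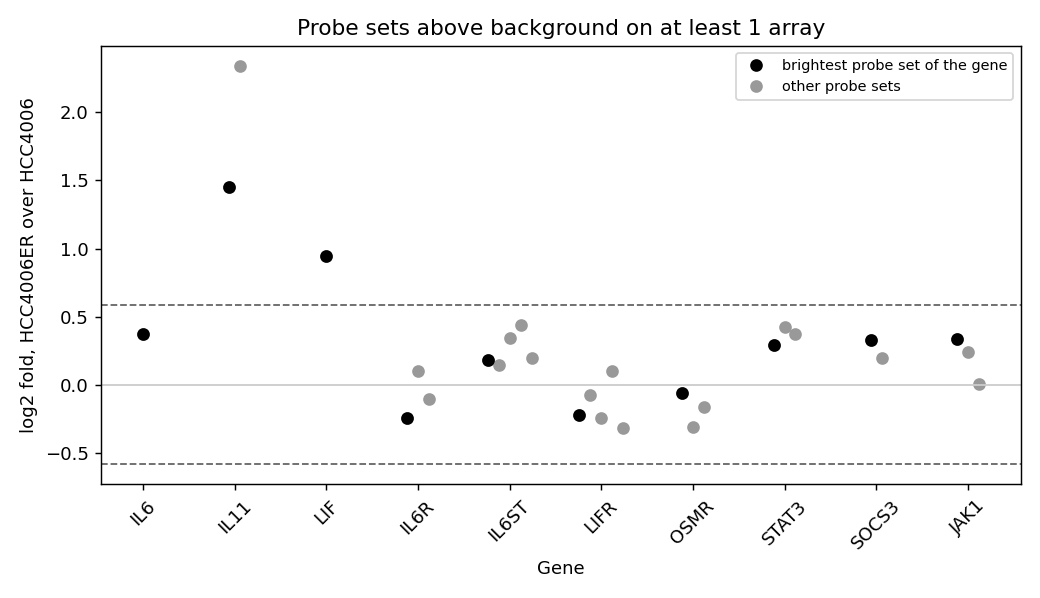
Log2 fold, HCC4006ER over HCC4006, for the 28 member probe sets above background on at least 1 array, with the brightest probe set of each gene in black, the others in grey and dashed lines at 1.5-fold. The IL11 pair and LIF lie above the upper line, and the other 25 lie between -0.32 and 0.44.

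Taking the 10 genes as a group, all 10 were above background, 2 were higher past 1.5-fold, 0 were lower past it and 8 lay within it. For comparison, 19.1% of the 11896 genes above background passed 1.5-fold in either direction, 7.99% on the higher and 11.2% on the lower side. At 2-fold, 1 of the 10 was higher (IL11) and 0 were lower, against 2.38% of all genes higher and 3.56% lower. Without regard to size, 7 of the 10 were higher on the array labelled HCC4006ER, against 45.6% of all genes. With 10 genes, 2 against that background is a count that 1 gene more or less would alter greatly. The members' median log2 fold was 0.31 and that of all genes was -0.04. Bringing the arrays to a common median added 0.14 to each log2 fold, so that the medians became 0.45 and 0.10, and it changed the lower share of all genes past 1.5-fold from 58.3% to 37.4%. Over probe sets, 3 of the 28 above background on at least 1 array were higher past 1.5-fold and none was lower, where the shares over all such probe sets were 9.25% and 10.1%.

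**Figure D3:**
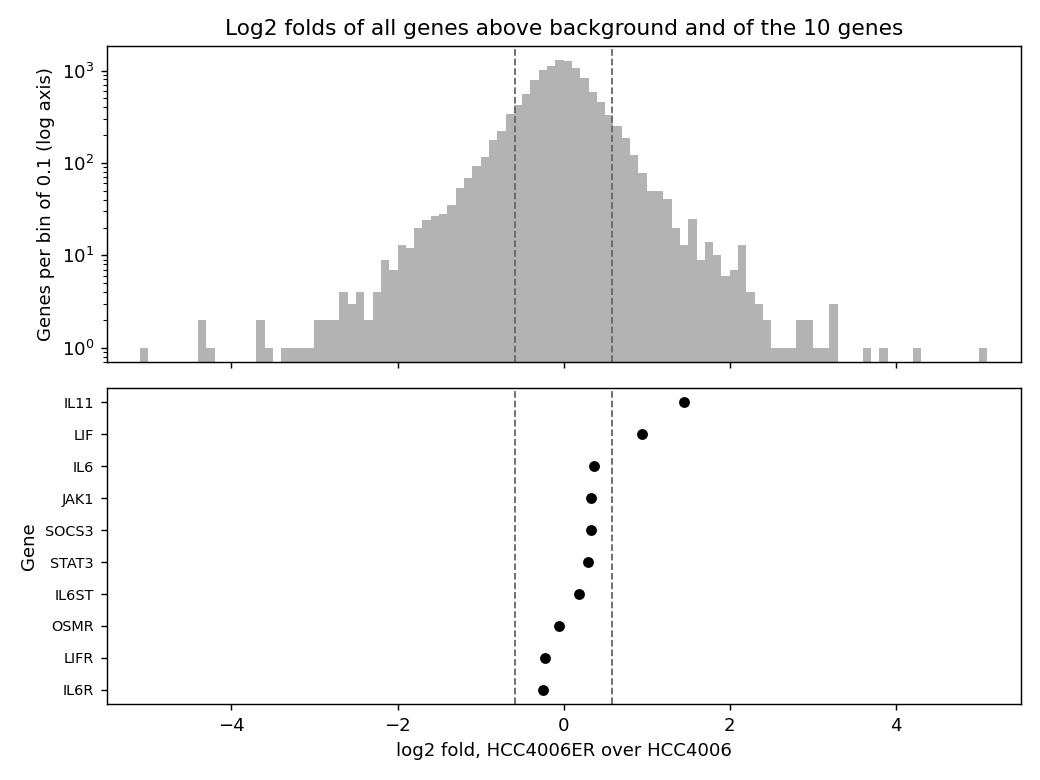
Top, number of genes per log2 fold bin (log axis) for the 11896 genes above background; bottom, the brightest probe set of each of the 10 genes on the same axis, with dashed lines at 1.5-fold. IL11 at 1.45 and LIF at 0.94 lie beyond the line on the higher side, while IL6R at -0.25 is the lowest.

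Further genes of the pathway were read from lists of other ligands, receptors, JAK and STAT genes, inhibitors, receptor sheddases, STAT3 target genes and acute phase genes. Of the 78 listed, 69 were measured with a single symbol and 9 were not analysed here. Above background were 53, of which 5 passed 1.5-fold on the higher and 8 on the lower side in HCC4006ER, with a median log2 fold of -0.15 beside -0.04 for all genes. These counts are near the shares over all genes, 7.99% higher and 11.2% lower, and show nothing particular to the lists. With the arrays at a common median, 5 were lower past 1.5-fold. Without regard to size, 17 of the 53 were higher on the array labelled HCC4006ER as deposited and 36 were lower, against 45.6% of all genes higher.

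Most other ligand genes were dim. OSM (oncostatin M), CNTF and IL27 were under background on both arrays. CTF1, which encodes cardiotrophin 1, read 126 and 108, a log2 fold of -0.22. EBI3, the subunit shared by interleukin 27 and interleukin 35, read 55.9, under background, for HCC4006 and 228 for HCC4006ER, and was at least 2.37-fold higher there. This bound follows the background level, and with that at the 99th percentile the log2 fold was 0.68 in place of 1.24.

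Among 4 other receptor chains, IL27RA, the interleukin 27 receptor, was lower, at 530 and 332 in its brightest probe set (1.60-fold). A second IL27RA probe set was lower within the threshold, with a log2 fold of -0.48, and at a common median the brightest one no longer passed, at -0.54. IL11RA, which binds interleukin 11 ahead of gp130, read 155 and 125, above background on both arrays, a log2 fold of -0.31. Its second probe set had a log2 fold of 0.01. CNTFR read 145 and 166, and IL31RA was under background.

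None of the 7 other JAK and STAT genes measured passed 1.5-fold in its brightest probe set. Their log2 folds ran from -0.55 for JAK2, at 338 and 231, to 0.32 for STAT5B. A second JAK2 probe set, at 203 and 132, was past 1.5-fold lower, with a log2 fold of -0.61. STAT6, a factor of interleukin 4 signaling, read 1773 and 1453. TYK2, a kinase that also binds gp130, read 490.5 and 528, a log2 fold of 0.11.

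Inhibitors of the route went both ways, with 3 of 15 above background higher, 1 lower and 11 within 1.5-fold, beside 7.99% higher and 11.2% lower over all genes. Some counted as within it had another probe set past it. That of SOCS4 was higher (log2 fold 0.62), and those of PIAS2 and PTPN11 were lower (-0.67 and -0.89). SOCS2, a suppressor best known in growth hormone signaling, read 1094 for HCC4006 and 2154 for HCC4006ER, 1.97-fold higher, and a further SOCS2 probe set read 333 and 668. CISH, a STAT5-induced relative of the SOCS genes, read 831 and 409, 2.03-fold lower, with the same direction in all 3 of its probe sets. SOCS2 and CISH, of 1 inhibitor family, thus passed the threshold in opposite directions. SOCS6 was 1.53-fold and the phosphatase gene PTPN1, which acts on JAK kinases, 1.51-fold higher, both close to the threshold and within it as a mean over probe sets (log2 folds of 0.48 and 0.40). SOCS6 had log2 folds of 0.29 to 0.61 over 3 probe sets, of which 1 passed. PIAS3, an inhibitor of STAT3 itself, read 883 and 637, a log2 fold of -0.47 that did not pass. The sheddase genes ADAM10 and ADAM17, whose products release soluble receptor from the cell surface, had log2 folds of -0.09 and -0.17.

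**Figure D4:**
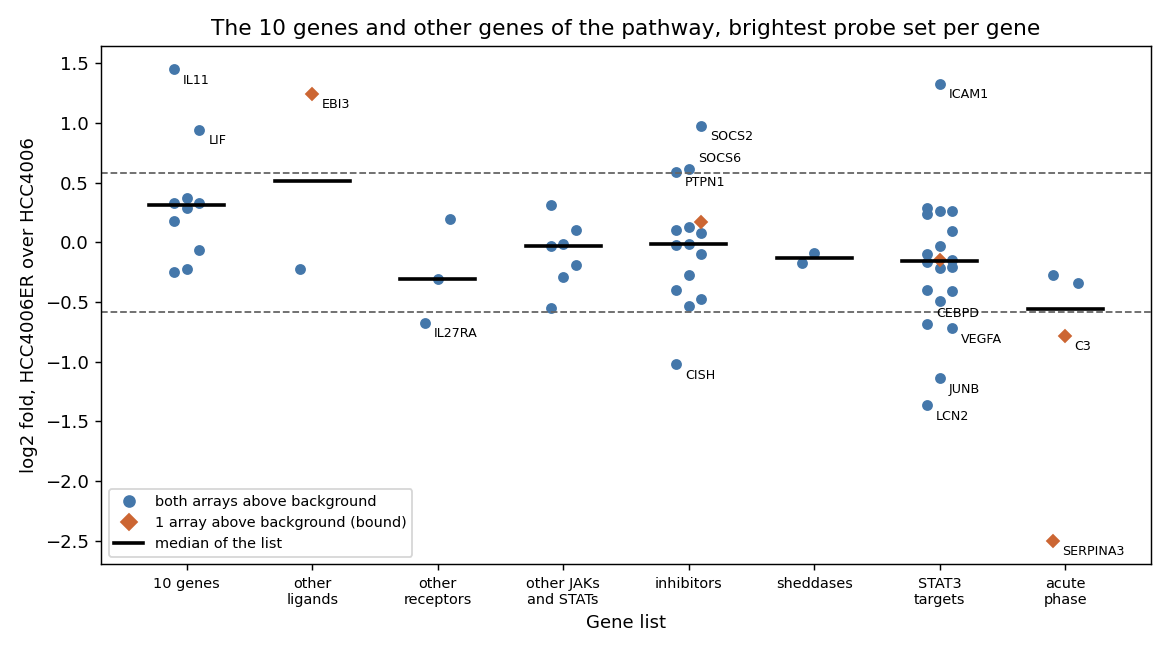
Log2 fold, HCC4006ER over HCC4006, by list for genes above background on at least 1 array; each point is 1 gene, diamonds mark bounds with 1 dim side, bars the list's median and dashed lines 1.5-fold. Named points passed the threshold, and they lie on both sides among the inhibitors and the STAT3 targets.

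Of 20 genes above background that are often cited as STAT3 targets, 1 was higher past 1.5-fold, 4 were lower and 15 lay within it, with a median log2 fold of -0.15. The shares over all genes were 7.99% higher and 11.2% lower. ICAM1, the adhesion molecule, read 317 and 796, 2.51-fold higher on the array labelled HCC4006ER, with all 3 probe sets higher at log2 folds of 0.57 to 1.57. LCN2, which encodes lipocalin 2, read 1846 and 716, 2.58-fold lower, and the AP-1 subunit gene JUNB read 1897 and 861, 2.20-fold lower.

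VEGFA, the angiogenic growth factor, was 1.65-fold lower, at 3969 and 2409, and 3 of its 4 probe sets passed 1.5-fold. CEBPD, a transcription factor of the acute phase response, was 1.60-fold lower, at 785 and 489. Neither passed 1.5-fold with the arrays at a common median, where the log2 folds were -0.58 and -0.55. Most of these targets also answer to other pathways. The anti-apoptotic genes MCL1 and BCL2L1 had log2 folds of -0.21 and -0.16, the kinase gene PIM1 0.24 and MYC 0.29. TIMP1, TNFRSF1A and IRF1 had log2 folds of -0.49, -0.41 and -0.40. A second IRF1 probe set, at 466 and 185, was past 1.5-fold lower, with a log2 fold of -1.34. Without regard to size, 6 of the 20 targets were higher and 14 lower, against 45.6% of all genes higher.

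Acute phase genes, which IL-6 induces in liver, were mostly dim, with 9 of 13 under background on both arrays. Of the 4 above it, 2 were lower past 1.5-fold and 0 were higher, beside 11.2% lower and 7.99% higher over all genes. Both were bounds with 1 dim side, and 4 genes are too few to read a share from. SERPINA3, which encodes antichymotrypsin, read 518 for HCC4006 and 82.9, under background, for HCC4006ER, at least 5.66-fold lower. This bound follows the background level, and with that at the 99th percentile the log2 fold was -1.67 in place of -2.50. C3, the complement component, read 158 and 12.8, at least 1.72-fold lower, but with background set at the 99th percentile of the receptor probe sets it was not above it on the array labelled HCC4006ER and barely above it on the other. SERPINA1 and CFB had log2 folds of -0.34 and -0.28.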

How the data were processed

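Total RNA of HCC4006 and HCC4006ER cells, 3 preparations mixed per line, was hybridized to 1 Affymetrix HG-U133 array each. The deposited values are MAS5 intensities (the submitters' processing notes name GCOS 1.4), linear and without detection calls, for 54675 probe sets. The RNA amount is 10 μg in the methods and 100 ng in the labels. Gene names came from the platform annotation, which gives 41097 probe sets a single symbol; 1801 with several and 11777 unlisted ones were left out. RefSeq (GRCh38.p14) held 41043 of the 41097.

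The log2 fold is the log2 of the HCC4006ER over the HCC4006 signal. The members, lists and tests were chosen with earlier results of these data known. Named were all members and, per list, genes past 1.5-fold or else the 3 brightest. Others were named after their values were seen: CTF1, IL11RA, CNTFR, JAK2, SOCS4, PIAS2, PIAS3, PTPN11 and the ADAM genes. So were STAT3 targets and acute phase genes within the threshold, and dim genes. No p-value was computed, and precision is limited by there being 1 array per line. The calculation was run on simulated arrays with known folds and little noise, which checks the code and not the precision of the folds here. Alternatives were 2 scalings, other probe set choices, a higher background, no floor, an added 50 and a 2-fold threshold. Python 3.11.15, numpy 2.4.6 and pandas 2.3.3 were used.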

Additional observations from a re-analysis of the deposited data

How the results depend on the processing

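IL11 and LIF stayed past 1.5-fold under all 9 alternatives that give a fold, with log2 folds of 1.42 to 2.34 and 0.88 to 1.08, and the other 8 members stayed within it under each alternative that gave them a value. IL11 was 1.90 as a mean over its probe sets, above background or all, and 2.34 with its most divergent probe set. For IL6ST, SOCS3 and JAK1 that probe set was under background and gave no value. At 2-fold, 1 member was higher; 2 other pathway genes were then higher and 4 lower. Of the other pathway genes, 3 were higher with means over all or over above-background probe sets and with 50 added, and 5 were lower once the arrays shared a median. That scaling put 1475 of all genes higher and 880 lower, against 950 and 1328 as deposited, and a 2-fold threshold left 283 and 424. Of 13 pathway genes past 1.5-fold, 7 passed under every alternative that gave a value. The others were VEGFA and CEBPD (lost at a common median), IL27RA (there and as a mean, -0.58), SOCS6 and PTPN1 (as a mean, 0.48 and 0.40, and with 50 added), PTPN1 also after quantile normalization, and C3. C3 had a log2 fold of 0.0503 at the higher background, which by construction lifted the HCC4006ER side above the HCC4006 signal. Among the 7, CISH and ICAM1 gave no value without probe sets named _s_at or _x_at, as all of theirs carry such names. No paired analysis was possible because each cell line had 1 array. Signal over background limits SERPINA3, EBI3 and C3 to bounds.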
